A study of Homo sapiens with 14 samples.

Results

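The comparison described here set Jurkat cells carrying a non-targeting guide (NT, n = 2 libraries) against Jurkat cells given the solvent dimethyl sulfoxide (DMSO, n = 3 libraries), which are the 2 control states of a study of the kinase scaffold *KSR2*. These 5 of the 14 libraries of the series were chosen by their labels, and no measured value entered the choice. Jurkat is an established human line of T-cell acute lymphoblastic leukaemia, and the measurement was RNA sequencing counts per gene. Of the other 9 libraries, 3 come from cells treated with APS-2-79, an inhibitor of KSR proteins (KSRi), and 3 each from cells with the first (guide 1) or the second (guide 2) *KSR2* guide. NT is the control of the guides and DMSO that of the inhibitor.

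The 2 control groups share the cell line, the RNA kit and the library kit. The labels call the NT libraries a control for CRISPR knockout, the design text speaks of CRISPR interference, and the library names speak of a hairpin. The extraction text mentions transduced cells in every library, so whether the DMSO cells were transduced is not settled by the labels. Whether the NT cells were also given DMSO, how long either culture was kept, the vector and its promoter, any selection and whether NT is 1 clone are unknown from these sources. The guide, the transduction, the solvent, the culture and any batch therefore cannot be told apart, and every difference below is one between 2 sets of libraries. No label says that replicates were separate cultures, so the spread behind the p-values is that between these libraries and may be technical alone.

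T-cell leukaemias of the Jurkat kind commonly carry active NOTCH1, a transcription factor circuit around TAL1 and high MYC, which drives genes of ribosome assembly, nucleotide supply and metabolism. Cells under stress use several separate programmes. Heat shock factor maintains cytosolic chaperones, the unfolded protein response raises chaperones of the endoplasmic reticulum (ER) when proteins misfold there, and ATF4 raises amino acid synthesis and transport when amino acids are short or eIF2 is phosphorylated.

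Library totals were 27099107, 33152122 and 43027877 counts for DMSO and 25794010 and 34535929 for NT. Levels are given as CPM, counts per 1000000 counts of the library, after scaling of the library sizes by the trimmed mean method (TMM). Across the 18963 tested genes, log2 CPM values correlated at 0.993 to 0.995 between DMSO libraries, at 0.994 between the NT libraries, and at 0.956 to 0.959 between NT and DMSO. All 12 T-cell markers and all 8 markers of Jurkat-type leukaemia reached 1 CPM in both controls. The T-cell markers summed to 2860 to 2919 CPM with DMSO and 2689 to 2729 CPM with NT. Of 7 B-cell markers only *CD79A* and *BLK* reached 1 CPM, and they did so in both controls, whereas *MS4A1*, *CD79B*, *PAX5* and *CD22* were under 0.1 CPM in all 5 libraries. The B-cell list summed to 38.7 to 41.8 CPM with DMSO and 73.1 to 92.9 CPM with NT, and its part in the results was not tested. Myeloid, erythroid and epithelial or packaging cell lists each summed to under 1 CPM in each library, the last to 0.0838 to 0.165 CPM with DMSO and 0.398 to 0.873 CPM with NT. The fibroblast list summed to 6.12 to 6.70 CPM with DMSO and 7.43 to 8.65 CPM with NT, most of it *COL1A1*, and within it *PDGFRB* was at 0.131 and 0.695 CPM in the mean. The part of these lists in the results was not tested. Mitochondrially encoded transcripts took 1.27% to 1.45% of the counts of DMSO libraries and 1.85% and 2.50% of those of NT. This and the other shares of library counts are of unscaled totals, unlike the CPM values, so the 2 measures are not directly comparable.

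**Figure D1:**
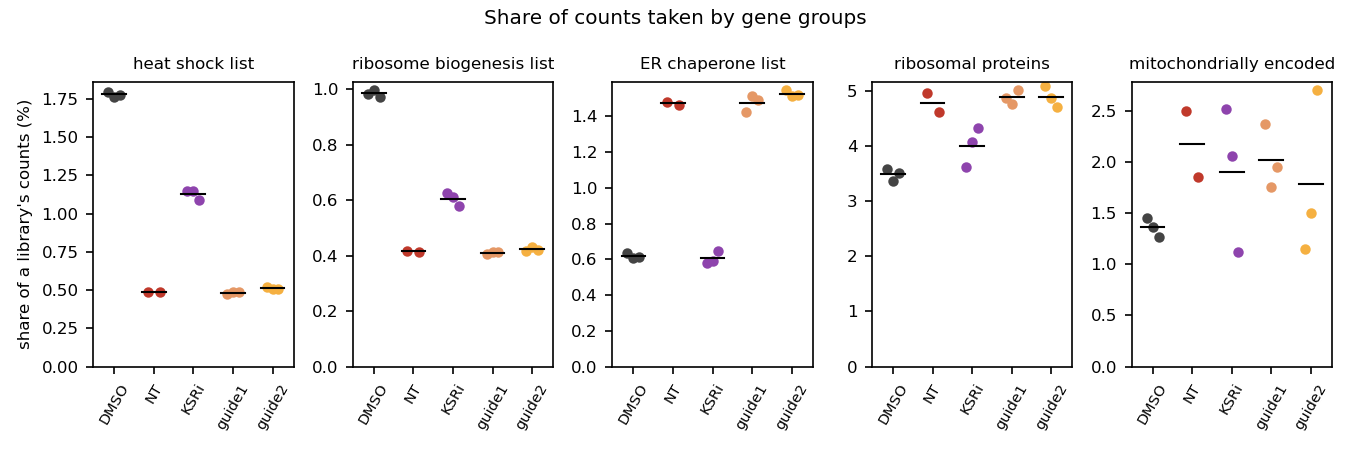
Share of each library's counts (%, vertical axes from 0) taken by 5 gene groups; points are libraries of the DMSO, NT, KSRi, guide 1 and guide 2 groups and bars are group means. The heat shock list took 1.76% to 1.80% of DMSO counts and 0.49% of NT counts, while the ER chaperone list took 0.61% to 0.63% and 1.47% to 1.48%.

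*KSR2*, the scaffold of the RAF, MEK and ERK kinases that the guides target (ENSG00000171435; chromosome 12, 117453012 to 117968983, GRCh38), stood at 34.8, 39.3 and 36.7 CPM with DMSO and 30.1 and 29 CPM with NT. The groups did not overlap, and the log2 difference was −0.33 ± 0.09 (standard error; edgeR quasi-likelihood test, adjusted p = 0.0033). That call was lost with upper-quartile scaling and with a filter of 5 CPM. The 6 *KSR2* guide libraries held 0.654 ± 0.145 CPM (SD, n = 6), so NT stood near DMSO and far above the guide libraries for this gene. Its relative *KSR1* stood at 21.9, 21.7 and 21.5 CPM with DMSO and 30.9 and 29.8 CPM with NT, with a log2 difference of 0.48 ± 0.09 (adjusted p = 0.0002).

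The 2 controls differed at most expressed genes. In bulk RNA, fewer cells expressing a gene and less of its RNA per cell cannot be told apart. The test called 12477 of 18963 genes (65.8%) at an adjusted p under 0.05, of which 6568 were higher with NT (34.6% of the tested genes) and 5909 were lower (31.2%). Counts of the gene lists below are to be read against these shares. Differences of at least 2-fold were found in 3747 genes that were higher (19.8%) and 1545 that were lower (8.15%). The libraries of the 2 groups did not overlap at 15029 genes (79.3%), and the median log2 difference over all tested genes was 0.04. Upper-quartile scaling moved that median to 0.26 and the share of calls that were higher from 52.6% to 66.4%. It called 8283 of the 18963 genes higher and 4187 lower, and list values under that scaling are to be read against these numbers. The TMM factors were 0.88 to 0.91 for DMSO libraries and 1.07 and 1.10 for NT. The zero of the log2 differences, and with it the split into higher and lower, thus depends on the scaling. Which zero is right was not tested. Without adjustment 12992 genes had a p under 0.05 in the same edgeR test.

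**Figure D2:**
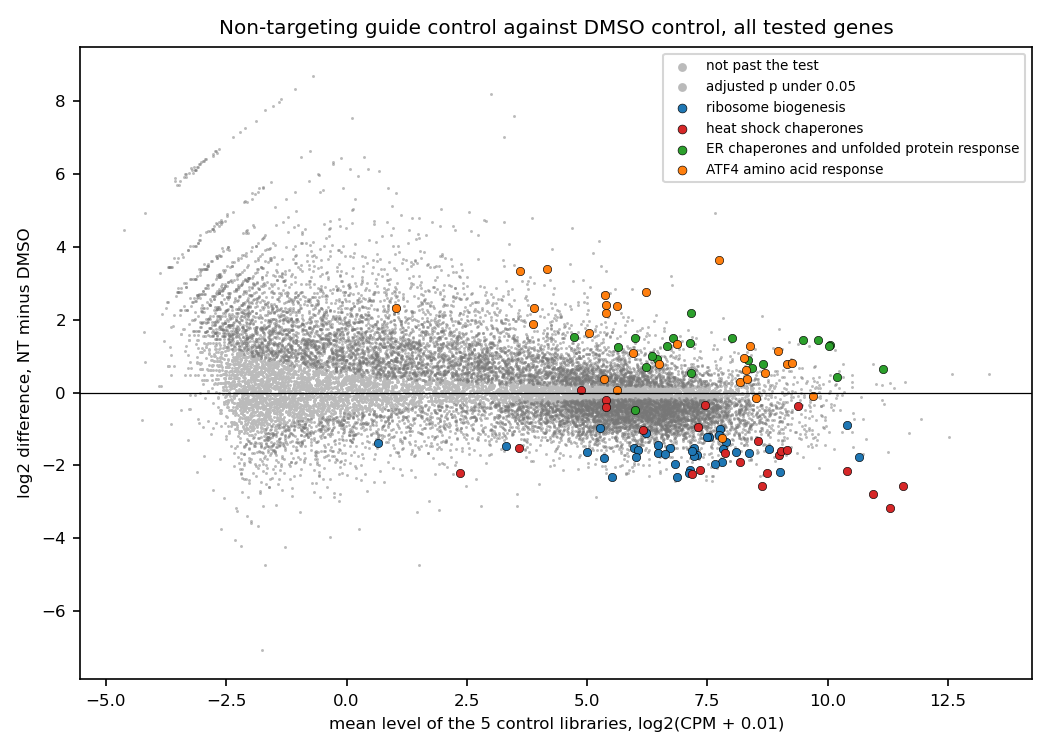
Log2 difference between NT and DMSO (vertical axis) against the mean level of the 5 libraries (horizontal axis, log2 of CPM + 0.01) for the 18963 tested genes; dark grey points passed the test, and 4 gene lists are coloured. Heat shock and ribosome biogenesis genes lie below 0 and ER and ATF4 genes mostly above it.

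The direction depended on the level of the gene. Of the 5001 genes with a mean under 1 CPM, 2049 were higher with NT and 465 (9.30%) lower. Among the 2779 genes over 100 CPM, 14.5% were higher and 62.8% lower. The filter ran over all 14 libraries, so a gene of low level could enter the test through groups where it was high. How much of the tilt at low level came from this was not tested. With a filter of 5 CPM in 2 libraries 4251 genes were higher and 4142 lower. In the main fit, long noncoding RNAs followed the pattern of genes under 1 CPM, with 48.1% of 3530 higher and 10.8% lower. Protein-coding genes did not, with 31.6% of 13174 higher and 39.2% lower. Among genes of at least 20 CPM, 59.6% of 146 long noncoding RNAs and 19.1% of 8050 protein-coding genes were higher. Long noncoding RNAs took 1.14% to 1.23% of the counts of DMSO libraries and 1.89% and 2.00% of those of NT. At least 1 CPM was reached by 13417 to 13460 genes with DMSO and by 14352 and 14406 with NT. The most abundant genes with a fall of at least 1.5-fold were the cytoskeletal *ACTB*, *TUBB* and *TUBA1B*, the glycolytic *GAPDH*, and the chaperones *HSP90AB1* and *HSPA8*. *ACTB* stood at 7791, 7400 and 7630 CPM with DMSO and 3635 and 2871 CPM with NT. The most abundant with such a rise were *CALR*, *TPT1*, *RPL3*, the mitochondrial rRNA *MT-RNR2*, *HSPA5* and *HSP90B1*, and the call of *RPL3* was lost under DESeq2 and without DMSO replicate 2, DMSO replicate 3 or either NT library.

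**Figure D3:**
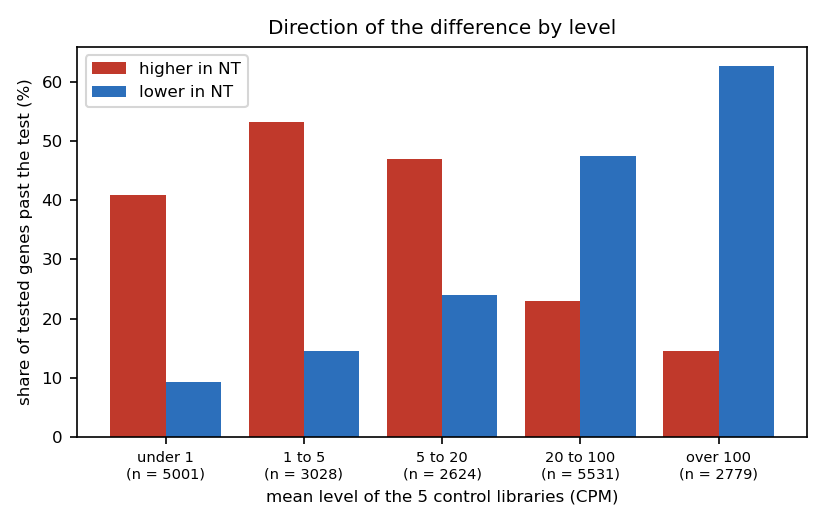
Share of tested genes called higher (red) or lower (blue) with NT (%, vertical axis from 0) in 5 ranges of mean level over the 5 libraries. The share called higher is 53.3% between 1 and 5 CPM and 14.5% over 100 CPM, and the share called lower rises from 9.30% in the lowest range to 62.8% in the highest.

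Cytosolic and mitochondrial chaperones were the gene group with the lowest median of the 47 described. Of 23 tested members 22 were lower with NT and none was higher, with a median log2 difference of −1.66 against 0.04 over all genes. *HSPA8* (ENSG00000109971; chromosome 11, 123057489 to 123063230), the constitutive cytosolic HSP70 that folds new proteins, stood at 4205, 3443 and 3994 CPM with DMSO and 464 and 396 CPM with NT. Both NT libraries were far below the lowest DMSO library, a 9.03-fold difference (log2 −3.17 ± 0.13, adjusted p = 5.6e-12). The HSP90 genes, whose products hold kinases and receptors in an active fold, followed, with *HSP90AA1* at 3116, 3039 and 2844 CPM with DMSO and 439 and 438 CPM with NT and *HSP90AB1* at 4558, 4549 and 4604 CPM with DMSO and 765 and 778 CPM with NT. The HSP70 exchange factor *HSPH1* fell from 592 to 101 CPM in the mean (log2 −2.56), the HSP40 cochaperone *DNAJA1* from 619 to 135 CPM (log2 −2.20) and the mitochondrial chaperonin *HSPD1* from 1968 to 438 CPM (log2 −2.17). The small heat shock protein *HSPB1* did not pass the test, at 28.6 to 29.8 CPM. It was named, as the single member without a call, after its value was seen.

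The promoters of *HSPA8* and *DNAJA1* are printed because they hold the heat shock element that was searched for on either strand, GAA, TTC and GAA with 2 bases of any kind between them, in capitals. The sequences are from RefSeq (GRCh38.p14), span 250 bases before to 50 after the gene start, and read 5′ to 3′ along the gene's strand. *HSPA8* lies at chr11:123062087-123062386, minus strand and *DNAJA1* at chr9:33025023-33025322, plus strand.
HSPA8: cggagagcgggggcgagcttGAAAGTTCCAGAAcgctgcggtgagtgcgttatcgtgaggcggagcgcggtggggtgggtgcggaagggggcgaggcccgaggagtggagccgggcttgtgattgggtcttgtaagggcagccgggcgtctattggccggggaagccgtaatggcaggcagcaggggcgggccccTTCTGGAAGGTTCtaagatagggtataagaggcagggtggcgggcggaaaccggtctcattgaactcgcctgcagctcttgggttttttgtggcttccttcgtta
DNAJA1: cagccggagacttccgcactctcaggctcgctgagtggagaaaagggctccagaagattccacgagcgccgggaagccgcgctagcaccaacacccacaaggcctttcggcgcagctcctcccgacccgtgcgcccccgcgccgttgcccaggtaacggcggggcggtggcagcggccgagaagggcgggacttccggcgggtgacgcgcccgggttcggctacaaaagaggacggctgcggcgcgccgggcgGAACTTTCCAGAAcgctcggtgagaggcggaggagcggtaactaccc
The element was in 4 of the 20 promoters found for chaperone genes that fell (*DNAJB6*, *DNAJA1*, *CHORDC1* and *HSPA8*) and in 0.487% of the 27305 promoters searched. Over the whole list, whatever the direction, it was in 4 of 21, and a tie to the direction was not tested. *HSPA8* held 2 matches and *DNAJA1* 1. A match is a description of letters and shows no binding.

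Chaperones of the ER moved in the other direction. Of 22 tested genes of the ER chaperone and unfolded protein response list 21 were higher with NT and 1 was lower, with a median log2 difference of 1.26. *HSPA5* (ENSG00000044574; chromosome 9, 125234853 to 125241330), the HSP70 of the ER lumen that holds the stress sensors inactive, stood at 714, 658 and 632 CPM with DMSO and 1650 and 1660 CPM with NT. *HERPUD1*, which serves degradation of misfolded ER proteins, stood at 60.1, 57.4 and 59 CPM with DMSO and 271 and 264 CPM with NT. Both NT libraries were above all DMSO libraries for both genes, with log2 differences of 1.31 ± 0.08 and 2.18 ± 0.08 (adjusted p = 4e-10 and 1.4e-12). The sensor kinase *ERN1* rose from 64.4 to 155 CPM, the transcription factor *XBP1*, whose mRNA that kinase splices, from 86.6 to 224 CPM, and *SEL1L* and *EDEM1*, of the same degradation route, from 148 to 422 CPM and from 529.7 to 1441 CPM. *SEC61B*, a subunit of the translocation channel, fell from 72 to 51.9 CPM (log2 −0.47, adjusted p = 0.00019).

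The *HSPA5* and *CALR* promoters, at chr9:125241294-125241593, minus strand and chr19:12938359-12938658, plus strand, are printed because they hold the ER stress response element, CCAAT and CCACG with 9 bases of any kind between them, in capitals, from the same RefSeq table.
HSPA5: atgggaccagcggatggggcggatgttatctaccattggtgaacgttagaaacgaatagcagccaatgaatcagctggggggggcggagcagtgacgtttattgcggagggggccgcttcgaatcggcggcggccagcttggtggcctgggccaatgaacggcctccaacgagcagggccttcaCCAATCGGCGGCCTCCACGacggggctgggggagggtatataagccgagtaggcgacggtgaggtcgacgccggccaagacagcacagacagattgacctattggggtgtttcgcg
CALR: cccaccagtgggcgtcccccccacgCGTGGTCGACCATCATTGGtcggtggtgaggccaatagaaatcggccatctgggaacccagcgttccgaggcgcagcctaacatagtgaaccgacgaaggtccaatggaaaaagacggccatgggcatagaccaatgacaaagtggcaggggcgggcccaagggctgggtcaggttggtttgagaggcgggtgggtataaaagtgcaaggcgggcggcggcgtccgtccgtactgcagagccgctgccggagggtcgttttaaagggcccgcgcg
Such an element was found in 6 of the 20 promoters of ER genes that rose (*CANX*, *HSPA5*, *HSP90B1*, *CALR*, *XBP1* and *CRELD2*) and in 0.0806% of all promoters searched, on either strand. Over the whole list, whatever the direction, it was in 6 of 21, and a tie to the direction was not tested. *CALR*, a calcium-binding lectin chaperone, stood at 1991, 1693 and 1877 CPM with DMSO and 2986 and 2772 CPM with NT. This motif and the heat shock element were added after the 2 lists had been seen to differ.

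The ATF4 amino acid response was higher with NT in 24 of 29 tested members and lower in 1, with a median log2 difference of 1.13. *TRIB3*, a pseudokinase induced by ATF4, stood at 39.9, 37.5 and 36.9 CPM with DMSO and 484 and 468 CPM with NT. *DDIT3*, the stress transcription factor CHOP, stood at 3.89, 3.24 and 4.04 CPM with DMSO and 42.1 and 36.7 CPM with NT, and *CHAC1*, a glutathione-degrading enzyme, at 2.47, 2.98 and 2.48 CPM with DMSO and 26.3 and 27 CPM with NT. For all 3 genes the lowest NT library was at least several-fold above the highest DMSO library, with log2 differences of 3.64 ± 0.14, 3.40 ± 0.14 and 3.33 ± 0.17 (adjusted p = 2e-12, 4.3e-12 and 4.2e-11). *CEBPB*, a partner of ATF4 on DNA, rose from 18.5 to 95.5 CPM and *VLDLR*, a lipoprotein receptor, from 22.9 to 154 CPM. *VLDLR* shares its locus with the antisense RNA *VLDLR-AS1*, which also rose, and *DDIT3* overlaps *MARS1* and *MBD6*, so reads of these pairs may not be separable because it is unknown whether the counting used strand. *ALDH18A1*, the first enzyme of proline synthesis, fell from 291 to 122 CPM (log2 −1.26).

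The *CHAC1* promoter (chr15:40953221-40953520, plus strand) is printed with its match to TGATGNAA, the core of the C/EBP-ATF response element through which ATF4 acts, in capitals.
CHAC1: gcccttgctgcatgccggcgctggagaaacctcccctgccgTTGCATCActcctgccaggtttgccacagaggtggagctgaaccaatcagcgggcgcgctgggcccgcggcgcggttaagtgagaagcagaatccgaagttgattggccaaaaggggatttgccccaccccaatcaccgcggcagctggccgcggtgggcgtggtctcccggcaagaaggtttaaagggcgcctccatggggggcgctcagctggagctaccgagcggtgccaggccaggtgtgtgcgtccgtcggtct
The core was in 4 of 22 promoters of list members that rose (*ATF3*, *ASNS*, *SLC3A2* and *CHAC1*), in 3.67% of all promoters searched and in 1.77% of the 11755 promoters of tested genes. Over the whole list, whatever the direction, it was in 5 of 25, and a tie to the direction was not tested.

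Cytosolic tRNA synthetases, which charge tRNAs with amino acids, had 8 of 20 higher and 7 lower, shares near those of all tested genes (34.6% higher and 31.2% lower). *AARS1*, *CARS1*, *SARS1* and *IARS1* rose, led by *AARS1* at 186, 149 and 179 CPM with DMSO and 730.3 and 750.1 CPM with NT (log2 2.11 ± 0.16). *FARSB*, *VARS1*, *RARS1*, *HARS1* and *KARS1* fell, led by *FARSB* from 184 to 62.4 CPM (log2 −1.56 ± 0.08).

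**Figure D4:**
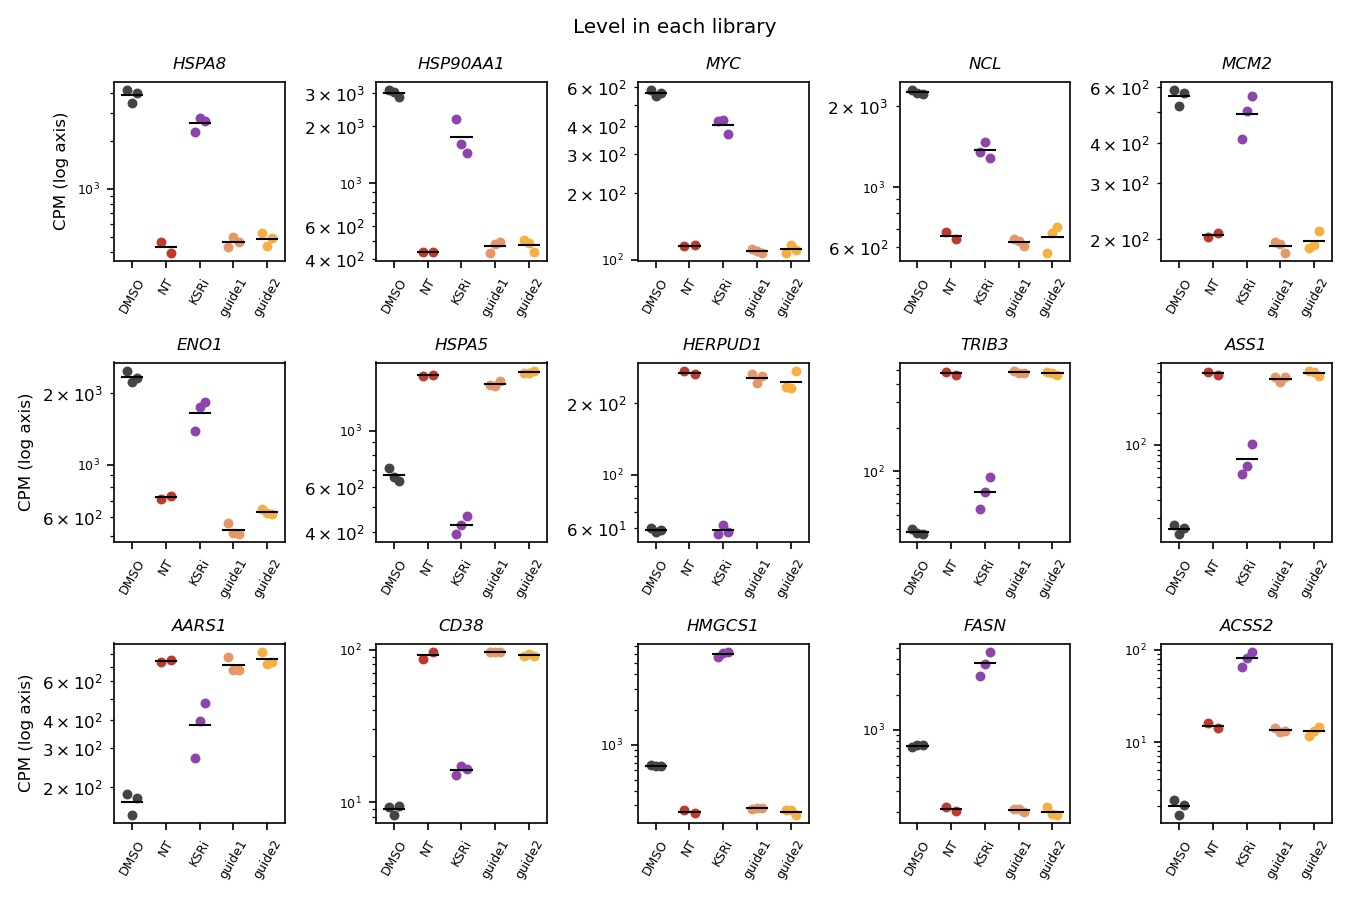
CPM (log axes, scaled per gene) of 15 genes in every library of the DMSO, NT, KSRi, guide 1 and guide 2 groups; points are libraries and bars are means. For *HSPA8*, *HSP90AA1*, *MYC*, *NCL*, *MCM2*, *ENO1*, *HMGCS1* and *FASN* both NT libraries lie below all DMSO libraries, and for the other genes above them; *NCL*, the nucleolar protein nucleolin, was plotted after its values were seen.

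*MYC*, the growth factor-driven transcription factor of T-cell leukaemia (ENSG00000136997; chromosome 8, 127735434 to 127741434), stood at 586, 551 and 567 CPM with DMSO and 115 and 116 CPM with NT. The groups were far apart, with a 4.9-fold lower level with NT (log2 −2.29 ± 0.08, adjusted p = 1.3e-12). The MYC and MAX network list had 3 of 11 genes higher and 5 lower, or 5 and 3 with upper-quartile scaling. The antagonists *MXD3* and *MXD4* rose from 17.5 to 44.2 CPM and from 46.9 to 88.6 CPM, and *MYCN* rose from 4.96 to 9.29 CPM. *MNT* and *MGA*, which also pair with MAX, fell (log2 −0.77 and −0.68). *MIR17HG*, from which microRNAs of the miR-17 cluster are cut, was at 22.2, 25.2 and 24.2 CPM with DMSO and 3.73 and 4.58 CPM with NT.

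Ribosome biogenesis factors, which make and process rRNA in the nucleolus, were lower with NT in all 36 of 36 tested members, 34 of them by at least 2-fold, with a median log2 difference of −1.62. *RRP12*, a factor of pre-ribosome export, stood at 173, 161 and 178 CPM with DMSO and 35.5 and 32.8 CPM with NT, and *NOLC1*, a nucleolar chaperone of small nucleolar RNPs, at 725, 769 and 759 CPM with DMSO and 166 and 163 CPM with NT. *POLR1A*, the catalytic subunit of RNA polymerase I, fell from 315 to 83.7 CPM, *UTP20* from 205 to 46.6 CPM and *URB2* from 161 to 40.9 CPM. *POLR1G*, another subunit of that polymerase, was among the largest falls of all genes, at 60.8, 52.4 and 53.2 CPM with DMSO and 7.93 and 7.38 CPM with NT, and it overlaps *ERCC1* and *PPP1R13L* on the other strand. *CCDC86*, a nucleolar protein gene, fell from 168 to 31.3 CPM (log2 −2.42).

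Genes that encode the cytosolic ribosomal proteins did not follow. Of 76 tested, 23 were higher and 9 lower, against 34.6% higher and 31.2% lower over all tested genes. The median was 0.13. With upper-quartile scaling the counts were 43 and 6, where 8283 of all 18963 tested genes were higher and 4187 lower. The number called higher was 10 without NT replicate 1 and 37 in a fit of only the groups compared. *RPL12* rose from 327 to 566 CPM and *RPL31* from 293 to 455 CPM. The largest falls were in genes that included *RPS10*, *RPL26*, *RPS15A* and *RPL17*, which stood at or under 18 CPM in every library and overlap read-through or unnamed genes on the same strand, so their values are uncertain. Small nucleolar RNA host genes had 8 of 22 higher and 9 lower, against 34.6% higher and 31.2% lower over all tested genes. *SNHG3* fell from 84 to 18.3 CPM and *SNHG16* from 239 to 74.4 CPM, whereas *SNHG1* rose from 112 to 165 CPM.

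Polyamine synthesis, a growth-linked pathway, was lower at each enzyme of the main route. *ODC1*, its rate-limiting enzyme, stood at 746, 716 and 701 CPM with DMSO and 165 and 173 CPM with NT, and spermidine synthase *SRM* at 302, 266 and 287 CPM with DMSO and 57.2 and 49.2 CPM with NT. Neither gene overlapped between groups (log2 −2.09 ± 0.09 and −2.42 ± 0.10). *AMD1* and *SMS* fell from 342 to 129 CPM and from 156 to 78.7 CPM. The catabolic genes *SMOX* and *SAT1* rose, from 16.4 to 46.4 CPM and from 5.44 to 8.35 CPM. In all, 7 of 10 tested genes of the list were lower and 3 higher.

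Proteasome subunits were lower in 30 of 31 members and higher in none (median log2 −0.95). *PSMD1*, a scaffold of the regulatory particle, stood at 278, 279 and 274 CPM with DMSO and 69.4 and 74.8 CPM with NT, a 3.84-fold difference (adjusted p = 2e-12). *PSMD3*, *PSMA3*, *PSMD12* and *PSMA5* fell with log2 differences of −1.49, −1.28, −1.16 and −1.03.

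Mitochondrial ribosomal protein genes were lower in 35 of 40 and higher in none (median log2 −0.88), while 1 was higher with upper-quartile scaling, without a filter, with the 5 CPM filter and with only the groups compared. *MRPL20* fell from 91.7 to 29.1 CPM and *MRPL4* from 117 to 37.1 CPM. Nuclear genes of the respiratory chain were lower in 37 of 51 and higher in 1 (median −0.62). *CYC1*, cytochrome c1 of complex III, stood at 166, 153 and 161 CPM with DMSO and 78.3 and 78.2 CPM with NT, *COX5A* of complex IV fell from 133 to 65.3 CPM and *SDHB* of complex II from 111 to 64.9 CPM. *NDUFB5* rose from 17.9 to 21.9 CPM, a call lost without NT replicate 1. Among the 13 mitochondrially encoded messages there was 1 call of a fall, *MT-ND6* at 36.6 to 28.1 CPM, which was lost with upper-quartile scaling. None was called higher, but 5 were without a filter, 4 with only the groups compared, 2 with upper-quartile scaling or the 5 CPM filter, and 1 with limma-voom or without DMSO replicate 1. The mitochondrial rRNA *MT-RNR2* stood at 765, 733 and 786 CPM with DMSO and 1844 and 1542 CPM with NT.

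DNA replication genes were lower in 33 of 35, 13 of them by at least 2-fold, and higher in none, or in 1 with upper-quartile scaling (median log2 −0.95). *MCM2* and *MCM4*, subunits of the replicative helicase, stood at 588, 522 and 575 CPM with DMSO and 202 and 209 CPM with NT and at 587, 553 and 624 CPM with DMSO and 204 and 232 CPM with NT. The flap endonuclease *FEN1* fell from 212 to 68.3 CPM, *MCM10* from 185 to 89.5 CPM and the histone mRNA-binding *SLBP* from 212 to 96.1 CPM. Among mitotic genes there were 15 of 30 lower, and 1 higher, with a median of −0.28. The rise was lost without DMSO replicate 2 or either NT library, and 3 were higher without a filter or with only the groups compared. *CDC20*, the activator of the anaphase-promoting complex, fell from 291 to 149.8 CPM, *PLK1* from 251 to 143 CPM and *CCNA2* from 265 to 150.5 CPM. Among 18 G1 regulators 6 were higher and 7 lower, near the shares over all tested genes (34.6% higher and 31.2% lower). The kinase gene *CDK4* fell from 309 to 139 CPM and *CCNE2* from 68 to 34.4 CPM, while the inhibitors *CDKN1B* and *CDKN1C* rose from 93.7 to 237 CPM and from 0.541 to 4.34 CPM. Replication-dependent histone genes had 6 of 14 higher and 1 lower, a call lost with upper-quartile scaling, the 5 CPM filter, the replicate block, and without DMSO replicate 1, DMSO replicate 3 or either NT library. The DNA damage and repair list had 13 of 26 lower and 3 higher. *PRKDC*, *XRCC6* and *XRCC5*, which form the DNA-dependent protein kinase, fell with log2 differences of −1.26, −1.30 and −1.04, and *LIG4*, which seals the same breaks, rose from 84.8 to 174 CPM.

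Glycolysis and hypoxia genes had 12 of 34 higher and 15 lower, where all tested genes had 34.6% higher and 31.2% lower, with a median of −0.02 that turned to 0.20 with upper-quartile scaling. Several enzymes of the main route fell. *ENO1* stood at 2497, 2235 and 2333 CPM with DMSO and 717 and 738 CPM with NT, *LDHA* at 1572, 1494 and 1504 CPM with DMSO and 498 and 543 CPM with NT and *PGK1* at 1227, 1095 and 1171 CPM with DMSO and 383 and 470.5 CPM with NT, and for all 3 the groups did not overlap. *PGAM1* fell from 624 to 205 CPM, and the lactate carrier *SLC16A1* from 325 to 131 CPM. *VEGFA*, the angiogenic factor raised in hypoxia, stood at 21, 21.5 and 21.2 CPM with DMSO and 72.5 and 74 CPM with NT. *NDRG1* rose from 11.4 to 35.2 CPM, *BNIP3L*, a mitophagy receptor, from 82.7 to 145 CPM, the glucose carrier *SLC2A3* from 8.12 to 22.2 CPM and the aldolase *ALDOC* from 9.83 to 33 CPM.

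Cholesterol synthesis was lower with NT. Of 9 genes of the mevalonate arm 7 were lower and none higher (median log2 −0.75), and of 11 enzymes after squalene 9 were lower and none higher (median −0.82). With upper-quartile scaling and with the 5 CPM filter 1 of the latter was called higher. *HMGCS1*, which makes the precursor of mevalonate, stood at 668, 651 and 655 CPM with DMSO and 274 and 258 CPM with NT. The groups did not overlap (log2 −1.31 ± 0.08). *SQLE*, which makes the epoxide of squalene, fell from 259 to 103 CPM and *DHCR7*, a late reductase of the route, from 315 to 122 CPM. Sterol sensing and uptake genes had 3 of 10 higher and 3 lower, near the 34.6% and 31.2% of all tested genes, or 5 higher with upper-quartile scaling. The list of liver X receptor targets had 2 of 6 genes higher and 1 lower, the latter 2 without DMSO replicate 1 or NT replicate 2. The cholesterol exporters *ABCA1* and *ABCG1* rose from 2.56 to 6.84 CPM and from 47.3 to 111 CPM.

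Fatty acid synthesis had 8 of 11 genes lower and 1 higher, and 5 were lower without NT replicate 2. *FASN*, the synthase, stood at 717, 740.4 and 739 CPM with DMSO and 219 and 204 CPM with NT, and *ACACA*, which makes its substrate, fell from 284 to 106 CPM. *ACSS2*, which makes acetyl-CoA from acetate, was the exception at 2.35, 1.62 and 2.07 CPM with DMSO and 16 and 14.1 CPM with NT (log2 2.91 ± 0.18). Fatty acid oxidation genes had 5 of 19 higher and 9 lower. *CPT1A*, the gate of fatty acid oxidation in mitochondria, fell from 149 to 64.7 CPM, and *PPARA*, a transcription factor of that pathway, rose from 44.3 to 79.7 CPM. The sterol regulatory element core TCACNCCAC, present in 1.15% of all promoters searched, was in none of the 5 mevalonate, 6 later sterol and 7 fatty acid promoters of genes that fell, which says only that these letters are not in those windows.

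The NOTCH list, receptors and direct targets, was lower in 14 of 20 genes and higher in 1 (median log2 −0.80). *HES1*, the classical NOTCH target, stood at 19.3, 17.2 and 17.2 CPM with DMSO and 2.03 and 2.12 CPM with NT, an 8.59-fold difference (log2 −3.10 ± 0.14, adjusted p = 1.6e-11). *DTX1* fell from 127 to 34.2 CPM, *SHQ1* from 271 to 78.9 CPM and *IGF1R* from 155 to 76.3 CPM. *NRARP*, the member that rose, lay under 1 CPM in every library, and its call was lost under DESeq2, with the replicate block and without either NT library or DMSO replicate 1. The TAL1 circuit had 9 of 16 genes higher and 1 lower with a median of 0.22, and 5 were higher without NT replicate 1. The number lower was 2 without that library or DMSO replicate 2. *ALDH1A2*, a retinoic acid-making target of TAL1, rose from 415 to 1048 CPM, *ETS1* from 478 to 639.7 CPM, and *TCF3*, the partner of TAL1, fell from 588 to 404 CPM.

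Genes of T-lineage stage had 11 of 25 higher and 10 lower, where all tested genes had 34.6% higher and 31.2% lower. The list median was 0.05, against 0.04 over all tested genes. *CD38*, an NAD-consuming surface enzyme of thymocytes and activated cells, stood at 9.26, 8.27 and 9.47 CPM with DMSO and 86.6 and 96.4 CPM with NT, and the activation marker *CD69* at 4.56, 4.86 and 4.58 CPM with DMSO and 37.4 and 34.8 CPM with NT. For both genes NT was far above DMSO (log2 3.35 ± 0.08 and 2.95 ± 0.10, adjusted p = 3.1e-14 and 1.2e-12). *DNTT*, which adds bases during receptor rearrangement, rose from 36.5 to 161 CPM, while the recombinase *RAG1* fell from 191 to 52.1 CPM and the pre-receptor chain *PTCRA* from 9.96 to 4.79 CPM. *TCF7* and *BCL11B*, factors of T-cell identity, fell with log2 differences of −1.01 and −0.76. Of the receptor complex and its kinases 13 of 29 were higher and 8 lower, the latter 5 with upper-quartile scaling or the 5 CPM filter. The phosphatase *PTPRC* (CD45) stood at 513, 499 and 475 CPM with DMSO and 1204 and 1206 CPM with NT, *CD2* rose from 47.5 to 102 CPM, and *CD3G* and *CD247* fell from 246 to 122 CPM and from 128 to 76.2 CPM.

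Cytokine receptor and JAK-STAT genes were higher in 18 of 31 and lower in 3 (median log2 0.49). With upper-quartile scaling these were 25 and 1, where 8283 of all 18963 tested genes were higher and 4187 lower. *IL4R* stood at 6.41, 5.26 and 6.06 CPM with DMSO and 25.8 and 21.4 CPM with NT. *IL21R* stood at 1.17, 0.827 and 0.932 CPM with DMSO and 7.56 and 6.9 CPM with NT and *IL2RA*, the high-affinity interleukin 2 receptor chain, at 0.0838, 0.132 and 0.0518 CPM with DMSO and 1.92 and 1.67 CPM with NT. The groups were separate for all 3 genes, though *IL2RA* stayed below 2 CPM. *CISH*, a feedback inhibitor of this signalling, fell from 5.66 to 2.41 CPM.

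Of 17 MHC class I presentation genes 8 were higher and 6 lower, against 34.6% higher and 31.2% lower over all tested genes. *HLA-B* stood at 51.2, 46.9 and 50.1 CPM with DMSO and 154 and 179.8 CPM with NT, *HLA-E* rose from 35.4 to 117 CPM, *HLA-F* from 1.63 to 10.1 CPM, and *NLRC5*, the transactivator of class I genes, from 24.6 to 78.4 CPM. The processing genes *TAPBP*, *ERAP2*, *PSME1* and *PSMB8* fell, with log2 differences of −0.54, −0.53, −0.52 and −0.61. HLA genes share sequence with each other, and how shared reads were treated in the counting is unknown from these sources. Of 6 tested class II genes 5 were higher, all below 10 CPM, with *HLA-DQB1* at 1.84, 1.26 and 1.22 CPM with DMSO and 5.39 and 5.03 CPM with NT.

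Interferon response genes had 15 of 38 higher and 11 lower, near the 34.6% higher and 31.2% lower of all tested genes. The counts were 21 and 5 with upper-quartile scaling, and fewer were lower without NT replicate 1. *OAS1*, *XAF1*, *IRF7* and *ISG20* rose, with *XAF1* at 25.7, 30.0 and 24.9 CPM with DMSO and 96.6 and 98.3 CPM with NT, while *ISG15*, *LY6E*, *IRF1* and the double-stranded RNA kinase *EIF2AK2* fell, with *EIF2AK2* at 94.9, 97.1 and 96.1 CPM with DMSO and 49.1 and 49.8 CPM with NT. Nucleic acid sensors had 10 of 19 higher and 4 lower, or 2 lower with upper-quartile scaling and 6 higher and 2 lower with the 5 CPM filter. *STING1*, the adaptor of cytosolic DNA sensing, rose from 36 to 71.4 CPM, and the RNA editor *ADAR* fell from 863 to 545 CPM. Among NF-kB targets 9 of 19 were higher and 5 lower, or 3 lower with upper-quartile scaling and 5 higher with the 5 CPM filter. *TNFAIP3*, the feedback inhibitor A20, stood at 57, 54.8 and 53.6 CPM with DMSO and 156 and 153 CPM with NT and *TRAF1* at 1.8, 2.31 and 2.46 CPM with DMSO and 15.7 and 14.7 CPM with NT. In the TNF receptor family, with 6 of 14 higher and 3 lower, *TNFRSF14* rose from 2.52 to 21 CPM (log2 3.05 ± 0.12), and *TNFRSF4* (OX40) fell furthest of the genes whose DMSO mean reached 5 CPM, at 6.32, 5.56 and 5.72 CPM with DMSO and 0.869 and 0.423 CPM with NT.

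The list of FOXO factors and genes that PI3K signalling restrains had 15 of 28 higher and 5 lower (median log2 0.41). *KLHL24* stood at 23.3, 20.9 and 23.7 CPM with DMSO and 81.1 and 90.4 CPM with NT, *YPEL5* rose from 7.43 to 37 CPM and *CCNG2* from 38.6 to 111 CPM. The death gene *BCL2L11* (BIM) fell from 93.3 to 43.5 CPM. Listed p53 targets, many of which other stress factors also drive, were higher in 10 of 24 and lower in 6. Over all tested genes 34.6% were higher and 31.2% lower. *TP53INP1* stood at 5.49, 5.46 and 5.85 CPM with DMSO and 43.7 and 39 CPM with NT, *SESN2* rose from 17.6 to 79.3 CPM, and *MDM2* fell from 219 to 134 CPM. Of 15 BCL2 family genes 7 were higher and 5 lower, beside the same shares over all tested genes. *BBC3* is also in the p53 list, *BCL2L11* in the FOXO list and *SESN1* in both the FOXO and p53 lists. The death genes *BMF* and *BBC3* rose from 8.47 to 45.8 CPM and from 2.35 to 14.8 CPM, and the survival gene *MCL1* fell from 266 to 158 CPM.

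The RAF, MEK and ERK cascade in which *KSR2* acts had 4 of 24 genes higher and 12 lower. With upper-quartile scaling these were 9 and 8, where 8283 of all 18963 tested genes were higher and 4187 lower. *PEBP1*, an inhibitor of RAF kinase, stood at 237, 267 and 268 CPM with DMSO and 82.6 and 76 CPM with NT (log2 −1.70 ± 0.10). *HRAS* stood at 47.5, 28.9 and 45.3 CPM with DMSO and 15.1 and 14.4 CPM with NT, while *MAPK3* (ERK1) rose from 59.6 to 87 CPM and the exchange factor *SOS2* from 38.2 to 74.2 CPM. The call of *MAPK3* was lost without NT replicate 1. The phosphatases *DUSP2* and *DUSP7* fell from 50.8 to 14.2 CPM and from 91.1 to 37.9 CPM, whereas *DUSP10* and the feedback gene *SPRY2* rose from 3.02 to 6.66 CPM and from 16.6 to 29.1 CPM. In all 8 of 16 outputs of the cascade were higher and 7 lower, or 4 and 3 with the 5 CPM filter, which tests fewer genes. Of 23 immediate early genes 11 were higher and 5 lower, and 6 were higher without NT replicate 2. The zinc-finger factor *EGR1* stood at 3.77, 4.03 and 3.29 CPM with DMSO and 17.1 and 15.3 CPM with NT, and *ATF3* at 7.25, 7.01 and 6.99 CPM with DMSO and 27.3 and 24.7 CPM with NT.

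Antioxidant genes of the NRF2 list were lower in 16 of 19 and higher in 2 (median log2 −0.80). *PRDX1*, a peroxide-reducing enzyme, stood at 637, 556 and 577 CPM with DMSO and 121 and 126 CPM with NT, *GPX1* fell from 90.3 to 31.7 CPM and *TXN* from 132 to 65 CPM. *SLC7A11*, the cystine carrier that ATF4 also drives, rose from 17.9 to 55.7 CPM. Of 13 iron-handling genes 7 were lower and 2 higher (4 higher with upper-quartile scaling), and the transferrin receptor *TFRC* stood at 830.2, 801 and 808 CPM with DMSO and 280.3 and 299 CPM with NT. Of 26 lysosome and autophagy genes 16 were lower and 6 higher. With upper-quartile scaling 8 were lower and 9 higher, where 4187 of all 18963 tested genes were lower and 8283 higher. *WIPI1*, an early autophagy factor, stood apart at 2.01, 1.46 and 1.71 CPM with DMSO and 22.3 and 20.1 CPM with NT (log2 3.63 ± 0.14). In the hexosamine pathway *GNPNAT1* fell from 108 to 51 CPM and *OGT*, which attaches the sugar to proteins, rose from 424 to 605 CPM. Of 8 hexosamine genes 2 were higher and 2 lower. The number higher was 4 with upper-quartile scaling and 1 with the 5 CPM filter or without NT replicate 1, and the number lower was 4 with only the groups compared. Of 37 adhesion genes 13 were higher and 10 lower, near the 34.6% higher and 31.2% lower of all tested genes, and the integrin genes *ITGA1* and *ITGA6* rose from 5.03 to 26.8 CPM and from 23.7 to 65 CPM.

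**Figure D5:**
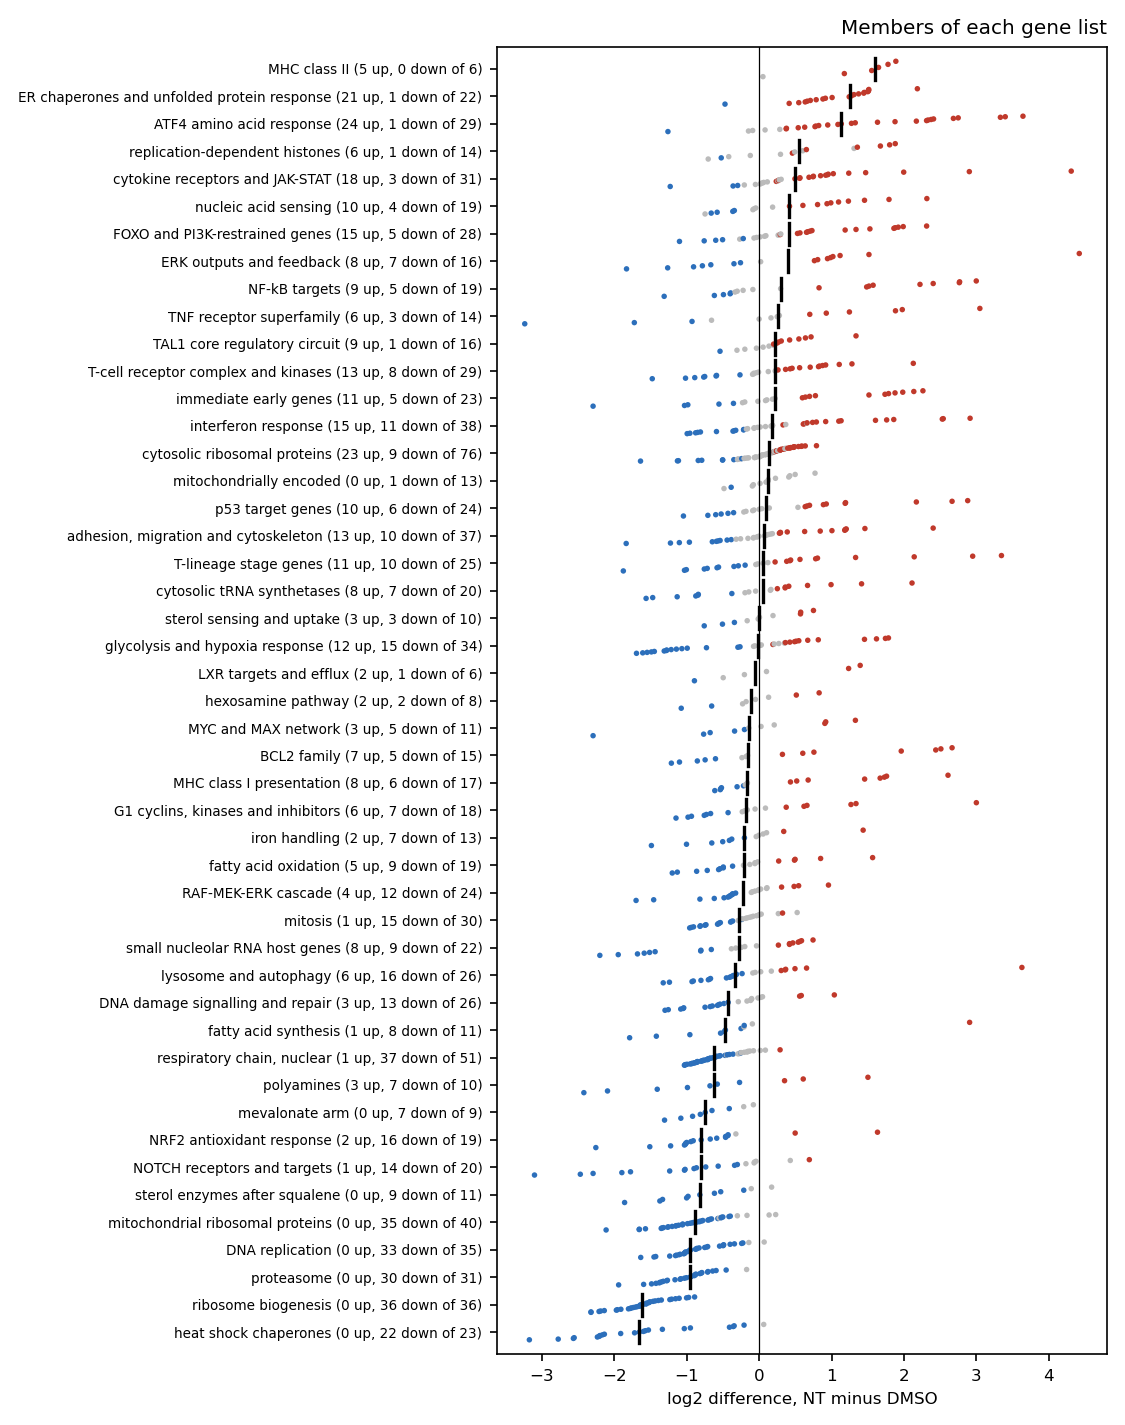
Log2 difference between NT and DMSO (horizontal axis) of every tested member of the 47 gene lists, ordered by median (black bars); red points were called higher, blue lower and grey did not pass. Labels give the number called in each direction; ribosome biogenesis is called lower in all 36, and ER chaperones are called higher in 21 of 22.

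The largest rises among genes with a symbol and at least 5 CPM were in *KLHDC7B*, *L3MBTL2-AS1* and *BEST1*. *KLHDC7B* (ENSG00000130487; chromosome 22, 50545891 to 50551023), a kelch-domain gene, had 2 counts in each DMSO library and 619 and 662 counts with NT. *L3MBTL2-AS1* stood at 0.0419, 0.132 and 0.207 CPM with DMSO and 29.5 and 25.8 CPM with NT, and *BEST1*, a chloride channel gene, at 0.209, 0.198 and 0.155 CPM with DMSO and 24.7 and 23.3 CPM with NT. Both lie opposite another gene, *L3MBTL2* and the ferritin gene *FTH1*, so a share of their reads may come from these. *ASS1*, argininosuccinate synthase, which makes arginine from citrulline (ENSG00000130707; chromosome 9, 130444929 to 130501274), was the most abundant of the 14 largest rises, at 17.2, 14.2 and 16.1 CPM with DMSO and 499 and 465 CPM with NT. Both NT libraries were far above DMSO (log2 4.93 ± 0.19, adjusted p = 3.6e-12). The other rises were of *LINC02384*, *CHRM3-AS2*, *COL6A2*, *ADAMTS7*, *EEF1A2*, *FRG1-DT*, *JDP2*, *ANXA3*, *MATN4* and *VLDLR-AS1*, with log2 differences from 4.67 to 5.04. *JDP2*, an AP-1 repressor, stood at 0.628, 0.463 and 0.776 CPM with DMSO and 18.1 and 16.2 CPM with NT. The largest falls of genes with a symbol, beside those described, were of *GPR17*, *OGFRP1*, *GPR75* and the nucleoside carrier *SLC29A1*, which stood at 241, 284 and 258 CPM with DMSO and 50.2 and 48.2 CPM with NT.

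Some genes were nearly silent in 1 control. There were 34 genes with at most 3 counts in every DMSO library and at least 1 CPM in both NT libraries, of which 23 were protein coding, and 1 gene with the reverse pattern. At a level of 0.5 CPM these numbers were 108 and 4. Beside *KLHDC7B*, those of greatest ratio included *ANKRD34C*, *GDAP1L1*, *REPS2* and *UCP1*. *REPS2* had 2, 0 and 1 counts with DMSO and 76 and 88 with NT. *UCP1*, the uncoupling protein of brown fat, had 1, 1 and 0 counts with DMSO and 75 and 66 with NT. *SLC6A19*, a neutral amino acid carrier, had 27, 45 and 44 counts with DMSO and 2 and 3 with NT. All 6 *KSR2* guide libraries reached 1 CPM for 26 of the 34 genes.

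The guide libraries, made with other guides, were compared with the same DMSO libraries, and the values are set side by side because the controls are shared. NT is the control of these guides, so culture, batch or transduction may be common to both. The guide libraries are therefore no independent view of the difference. Both *KSR2* guides together differed from DMSO at 13863 genes (73.1%). NT libraries correlated with guide 1 libraries at 0.993 to 0.995 and with guide 2 libraries at 0.993 to 0.995. The mean over the 6 guide libraries was 473 CPM for *HSPA8*, 110.5 for *MYC*, 1616 for *HSPA5*, 480.3 for *TRIB3*, 459 for *ASS1* and 93.9 for *CD38*. For *HSPA8* and *MYC* these lie below the lowest DMSO library and for the other 4 genes above the highest. The inhibitor libraries had 2581, 407, 427, 72.4, 72.8 and 16.3 CPM for the same genes in the same order. For *HMGCS1* and *FASN* the inhibitor libraries stood at 6019 and 3716 CPM, above DMSO, and the guide libraries at 275 and 205 CPM, below it.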

How the data were processed

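RNA sequencing counts of 5 control libraries (3 DMSO, 2 NT) were analysed within the deposited table of all 14 Jurkat libraries. The authors deposited raw whole-number counts for each Ensembl gene, and the submitters' processing notes list the tools STAR 2.7.11b and DESeq2 1.42.1 with the build GRCh38. The counting program, its strand setting and its annotation were not stated in the sources used, and these affect overlapping, antisense and near-identical genes. Of 376 named genes, 23 are overlapped by a protein-coding gene on the same strand and 91 on the opposite strand.

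The table held 61541 genes, 25747 with 0 counts everywhere. Symbols were found for 61369 identifiers, and positions and types come from GENCODE (GRCh38). Counts were fitted in R 4.3.3 with edgeR 4.0.16 (scaling by TMM, filterByExpr, 1 mean per group over all 14 libraries, since NT has 2), which kept 18963 genes and at least 99.93% of counts. The test was quasi-likelihood F with Benjamini-Hochberg adjustment over all tested genes, at 0.05. The common biological coefficient of variation was 8.6%, and the 95% interval of a log2 difference had a median half-width of 0.289. Errors are SDs over libraries or standard errors.

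Named genes are *KSR2* and *KSR1*, the 14 largest rises and falls of genes with a symbol (at least 5 CPM in the higher group, no overlap), the 6 most abundant genes per direction with at least 1.5-fold difference, up to 5 called members per direction with the lowest p in each of 47 lists, and the 6 genes of greatest ratio among those with at most 3 counts in 1 control. The members and lists were chosen with earlier results of these data known. Some genes are in more than 1 list, so the list counts are not independent of each other. The rule was kept; exceptions are marked. Some genes it names are not reported here.

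The alternatives tried were other scalings (RLE, upper quartile), other filters (none, or 5 CPM in 2 libraries), other tools (limma-voom from limma 3.58.1, and DESeq2 1.42.0), fitting the compared groups alone, a replicate block, each library left out, an adjusted p under 0.01 and a 2-fold threshold. On simulated data for NT against DMSO (18963 genes, 200 changed) 68.7% of the genes changed by 1.5-fold were called, as were 98.5% at 2-fold and 100% at 4-fold, and 10 unchanged genes were called. Far more genes were called in the data (12477) than were changed there, so these rates may not carry over. All replicates were kept as separate libraries, because a chi-square test of their counts gave 5.83 to 7.78 per degree of freedom within DMSO and 9.85 within NT. Motif searches used RefSeq promoters (GRCh38.p14) without chromosome 8.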

Additional observations from a re-analysis of the deposited data

How the results depend on the processing

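The number of genes that differed between NT and DMSO (12477) was 12488 with RLE factors, 12470 with upper-quartile factors, 12880 without a filter, 12171 with DESeq2, 12488 with limma-voom, 12973 with only the groups compared and 10406 at an adjusted p under 0.01. It was 5292 with at least a 2-fold difference. With a filter of 5 CPM in 2 libraries, which tests 11680 genes, 8393 differed, 4251 of them higher and 4142 lower. Of these, 1515 were higher and 670 lower by at least 2-fold. Between *KSR2* guides and DMSO 9192 genes differed with that filter. With upper-quartile factors 903 genes were lower by at least 2-fold. The call of *MAX* was lost with those factors, at a log2 difference of 0.013 (edgeR quasi-likelihood test, adjusted p = 0.888), and the cause was not tested. At a level of 0.5 CPM the nearly silent genes numbered 108 for DMSO and 4 for NT. Leaving out each library in turn gave 10722 to 11821 genes in all, 5651 to 6213 higher, 5071 to 5622 lower, 3525 to 3718 higher by at least 2-fold and 1491 to 1535 lower by at least 2-fold, and 12788 to 13037 for the *KSR2* guides against DMSO. Without an NT library that group has 1 library, assumed to vary like the others.

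With the replicate number as a block 11958 genes were called. Whether the numbers pair the libraries is not settled. Same-numbered libraries deviated together at correlations of 0.05 and 0.00077. Only 2 numbers are shared, and the deviations of 2 NT libraries from their mean mirror each other, so this check cannot decide it. Of 376 named genes 376 kept their direction and call with RLE factors, with limma-voom and with only the groups compared, 374 with DESeq2 and without a filter, 373 with the block and 360 with upper-quartile factors. Of the 346 tested with the filter of 5 CPM 338 did. In the simulation differences of 1.5-fold were called only in part. The data held calls of smaller ones, such as *MAX* at 1.15-fold, which was lost with several of the alternatives. Calls of that size are therefore uncertain.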

Other observations

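The most abundant T-cell receptor variable segments were the same in both controls, and no junction sequence was read. *TRBV12-3* made up 90.0% of the beta variable segment level with DMSO and 78.3% with NT, and *TRAV8-4* 92.3% and 88.0% of the alpha level. *TRBV12-3* stood at 178 ± 13.6 CPM with DMSO (SD, n = 3) and 204 ± 0.965 CPM with NT (n = 2), and did not pass the test (log2 0.20, adjusted p = 0.20). *TRAV8-4* stood at 62.3 ± 4.38 and 118 ± 0.462 CPM. *TRBV7-2* was at 11.3 ± 1.02 and 30.2 ± 2.01 CPM, 5.73% and 11.6% of the beta level. Variable segments share sequence, so these values are uncertain. Genes in this section outside the naming rule were chosen after their values were seen.

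No chromosome stood far from the others, with median log2 differences from −0.11 (chromosome 16) to 0.18 (chromosome 13). Along the chromosomes 23 runs of at least 8 neighbouring tested genes were called in 1 direction, 15 higher and 8 lower. The longest, 14 genes from position 21846537 to 22552154 of chromosome 14 (GRCh38), covered segments of the T-cell receptor alpha locus and had a median log2 difference of 1.52. On chromosome 1, from 160400586 to 161021348, 9 genes that include the SLAM family receptors *SLAMF6*, *CD84*, *SLAMF1*, *CD48*, *LY9* and *CD244* were higher with a median of 1.40. On chromosome 22, from 50542305 to 50628173, 10 genes from *KLHDC7B-DT* and *KLHDC7B* to *ARSA* were higher with a median of 1.55. On chromosome 3, from 47413694 to 48301685, 11 genes that include *SCAP*, *DHX30* and *CDC25A* were lower with a median of −0.77. Neighbouring genes can share reads, which was not tested.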
